A study of Zea mays with 18 samples.

Results

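The recovery phase of the maize heat stress response was followed in leaves of the inbred line W22 by comparing plants sampled after 2 h of recovery (R2h) with plants sampled after 1 h at 39 °C (1 h). The comparison is defined by the sample labels alone and takes 6 of the 18 RNA-seq libraries of the series, 3 of W22 R2h and 3 of W22 1 h. Of 36321 genes in the expression table, 22572 (62.1%) had an FPKM (fragments normalized to transcript length and library size) of at least 1 in at least 3 libraries and were tested.

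The other groups were W22 before heat stress (0 h) and the line labelled *nf-ya1* at 0 h, 1 h and R2h, with 3 libraries each. *nf-ya1* is a homozygous line in the W22 background with a *Mu* insertion in *ZmNF-YA1* (Zm00001eb005690), which encodes the A subunit of the NF-Y transcription factor. W22 is its wild-type control. All plants were seedlings grown under the same day and night regimen, and RNA was taken from the leaf lamina. Heat of 1 h and recovery of 2 h are the times in the sample titles and are the ones used, while the protocol deposited with them states 6 h and 2 d. For these libraries the sources used here do not give the length of heating before recovery. The study's time course for quantitative PCR, which used the same R2h label, was heated until well past 1 h before recovery, so the R2h plants may not have followed the 1 h schedule. The time of day and the age of the plants cannot be told apart from the treatment.

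During heat stress plant cells transcribe genes for heat shock proteins, which are molecular chaperones that bind unfolded proteins, prevent their aggregation and help them refold. Small heat shock proteins of the Hsp20 family hold unfolded clients without ATP, while Hsp70 with its DnaJ partners, Hsp90, chaperonins and Clp-type ATPases refold or disaggregate them. Transcripts of many genes for growth and photosynthesis decline at the same time. After the return to normal temperature, heat-induced transcripts decay and the others return.

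*ZmNF-YA1* itself was at 49.6, 43.7 and 39.1 FPKM in the W22 1 h libraries and at 11.4, 15.1 and 12.4 FPKM at R2h, against 23.1, 22.8 and 26.6 FPKM at 0 h. All R2h libraries were below all 1 h and all 0 h libraries. The level at R2h was lower than at 1 h (log2 R2h/1h -1.70 ± 0.20 SE, limma adjusted p = 3.27e-06). It did not pass the treat test, which tests for a log2 change above 1 (limma treat adjusted p = 0.0161). In the libraries labelled *nf-ya1* the gene was at 13.01, 12.6 and 21.15 FPKM at 0 h. It was at 43.2, 36.1 and 27 FPKM at 1 h and 8.97, 12.9 and 9.38 FPKM at R2h, so its transcript was not absent there. The study describes the mutant as lacking this transcript, and its quantitative PCR before heat put the mutant far below W22. The position of the insertion relative to these reads was not analysed here. Those libraries are called by their label below.

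The 6 libraries summed to 862539 to 904330 FPKM. Libraries of a group correlated at 0.983 to 0.988 (1 h) and 0.983 to 0.99 (R2h) in log2(FPKM + 1), and R2h with 1 h at 0.848 to 0.871. R2h libraries correlated with 0 h libraries at 0.946 to 0.955. The 20 most abundant genes held 25.9% to 27.1% of the FPKM at 1 h and 18.6% to 19.8% at R2h. R2h replicate 1 was the lowest of the R2h libraries in 49% of tested genes, against 23.5% for replicate 2 and 22% for replicate 3, and results that rest on it are given below without it. The leaf label was met by the chlorophyll a/b binding proteins, which held 1.49% to 6.47% of the FPKM in the 6 libraries, and by carbonic anhydrase Zm00001eb158800, at 459, 462 and 379 FPKM at 1 h and 697, 744 and 720.3 FPKM at R2h.

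Between 1 h and R2h, 6923 genes rose and 1293 fell, which is 30.7% and 5.73% of the tested genes. A gene counted as changed if its adjusted p was at most 0.01 and its log2 fold change at least 1 in either direction. The median level of the genes that rose was 3.04 FPKM at 1 h and 11.3 FPKM at R2h, and these genes had a median of 8.19 FPKM at 0 h. In these bulk leaf samples, less RNA per cell and fewer cells of a type cannot be told apart. For the genes that fell the medians were 36.9 FPKM at 1 h, 8.15 FPKM at R2h and 9.81 FPKM at 0 h. By size, 93 genes fell and 42 rose by at least 4 on the log2 scale, and 9 fell and 2 rose by at least 6.

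The split between higher and lower genes depended on how the libraries were scaled. FPKM values are relative within a library. Over the whole set of tested genes, the log2 fold change had a median of 0.66. Median-ratio scaling shifted it by -0.65 to 0.02 and gave 1794 higher and 2813 lower genes (38.9% higher, against 84.3% in FPKM). Quantile normalization shifted it by -0.59 to 0.07 and gave 2063 higher and 2268 lower genes (47.6% higher). In all 3 scalings 1481 genes were higher and 1287 were lower, and 0 genes were called in opposite directions. Log2 fold changes below are on the FPKM scale, where 0.66 is the middle of all genes, and counts of family members stand against 30.7% higher and 5.73% lower among all tested genes.

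**Figure D1:**
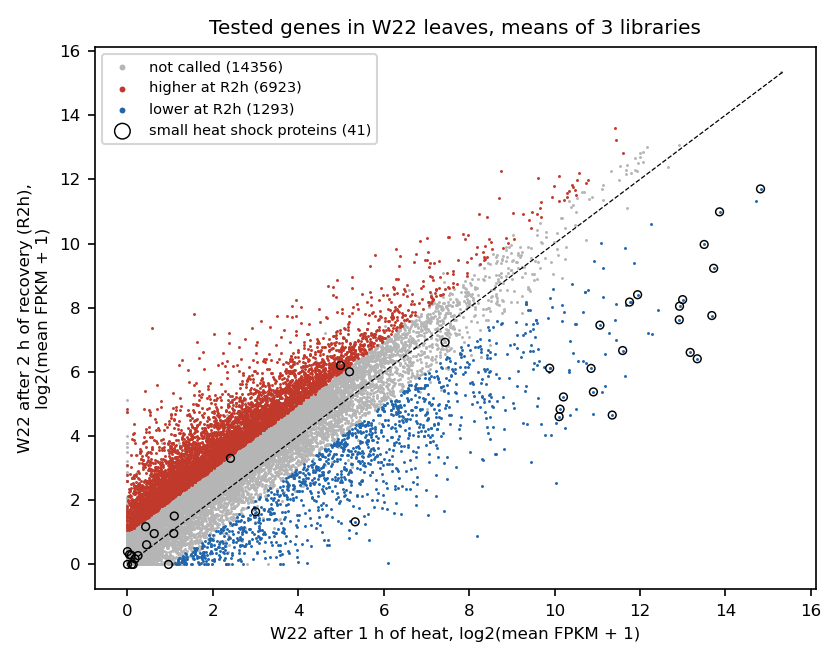
Mean FPKM of the 22572 tested genes in W22 at 1 h (horizontal) and R2h (vertical), both as log2(mean FPKM + 1), with 6923 higher genes in red, 1293 lower genes in blue and the other 14356 in grey. Circles mark the 41 small heat shock proteins, of which the most abundant lie far below the dashed line of equal level.

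Families were taken from the protein domains that the study's annotation gives for genes it had called in these samples, which covers 1773 tested genes. A family's count is therefore not independent evidence of its direction, and genes without such an annotation are missing from the families. Of the 1773 genes, 634 were higher and 175 lower at R2h than at 1 h, both larger shares than among all tested genes. Heat shock transcription factors, Hsp70 and Hsp90 were not analysed here.

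Small heat shock protein transcripts were lower at R2h. Of 41 tested genes with the Hsp20 (alpha crystallin) domain, 23 fell, 1 rose and 17 did not pass, with a median log2 fold change of -3.19 (5.73% of all tested genes fell). Their summed FPKM was 143220 to 155734 in the 1 h libraries, which is 16.4% to 17.3% of each library. At R2h it was 6581, 11434 and 10729, or 0.746% to 1.3% of a library, which is 15.6 times lower in the mean. The unheated libraries held 4653 to 5238, so the sum in every R2h library remained above that in every 0 h library. By member, R2h/0h had 12 higher and 2 lower of 41, with a median log2 fold change of 0.11. Among all tested genes 3.96% were higher and 1.87% lower for R2h/0h. The family had the same direction under both other scalings, with 24 and 23 members lower.

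The most abundant member, Zm00001eb124960, was at 28292, 30438 and 28176 FPKM at 1 h and at 1995, 4189 and 3802 FPKM at R2h. All R2h libraries were below all 1 h libraries (log2 R2h/1h -3.19 ± 0.42 SE, limma adjusted p = 7.62e-06). Zm00001eb010530 went from 16004, 14285 and 14408 FPKM to 1766, 2156 and 2163 FPKM (log2 R2h/1h -2.88 ± 0.37 SE, limma adjusted p = 5.65e-06). The groups did not overlap for either gene. Zm00001eb010530 was still 4.47 above its 0 h level of 90.6, 93.8 and 85.5 FPKM on the log2 scale (R2h/0h, limma adjusted p = 9.76e-07). Zm00001eb124960 had been at 1719, 1936 and 1765 FPKM at 0 h, and its R2h/0h difference of 0.81 did not pass (limma adjusted p = 0.185). Zm00001eb011900 went from 13959, 13388 and 13285 to 417, 728 and 651 FPKM (log2 R2h/1h -4.54 ± 0.27 SE, limma adjusted p = 3.04e-09), and was at 867, 915 and 948 FPKM at 0 h, where R2h/0h did not pass (limma adjusted p = 0.105).

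On the log2(FPKM + 1) scale, the 5 largest falls among annotated genes were all in this family. Zm00001eb193940 was at 11609, 10002 and 9541 FPKM at 1 h and at 45.2, 106 and 100.2 FPKM at R2h, a ratio of means of 124 (log2 R2h/1h -7.03 ± 0.26 SE, limma adjusted p = 2.64e-11). Its 0 h values were 91.5, 98 and 91.3 FPKM, so the R2h libraries spanned the unheated level. Zm00001eb112330 went from 2724, 2598 and 2507 to 9.05, 33.4 and 30.2 FPKM, a ratio of 108. Zm00001eb397940 went from 9926, 8857 and 8979 to 81.6, 103 and 104 FPKM, a ratio of 96. The 3 ratios lay within 96 to 124, from 1 h levels that differed several fold. These genes were picked for the size of their fall, so the closeness of the 3 ratios says nothing about the family. Zm00001eb011930 went from 14158, 13090.0 and 12209 to 176, 239 and 230.4 FPKM, a ratio of 61.1. Zm00001eb252460 went from 2313, 1711 and 1743 to 14.4, 57.3 and 49.9 FPKM, a ratio of 47.4. Near-identical copies in this family can share reads, so the division among copies is uncertain.

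Among the 23 members that fell, the ratio of 1 h to R2h means ranged from 3.3 to 124, and the libraries of the groups did not overlap for any of them (they did not overlap in 78.1% of all tested genes). A mean of at least 1000 FPKM was reached by 20 of them at 1 h and by 3 at R2h. Of the 17 members that did not pass, 15 had a mean under 10 FPKM at 1 h. The 1 member that rose, named after its values were seen, was Zm00001eb125010, from 20.1, 32.1 and 40.1 FPKM at 1 h to 68.4, 71.2 and 77.9 FPKM at R2h, and it was not called under either other scaling or without 1 h replicate 1. R2h replicate 1 was the lowest R2h library for 23 of the 23 members that fell, and for 66.8% of all genes that fell. Without that library 23 members were again lower and the median was -2.86.

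**Figure D2:**
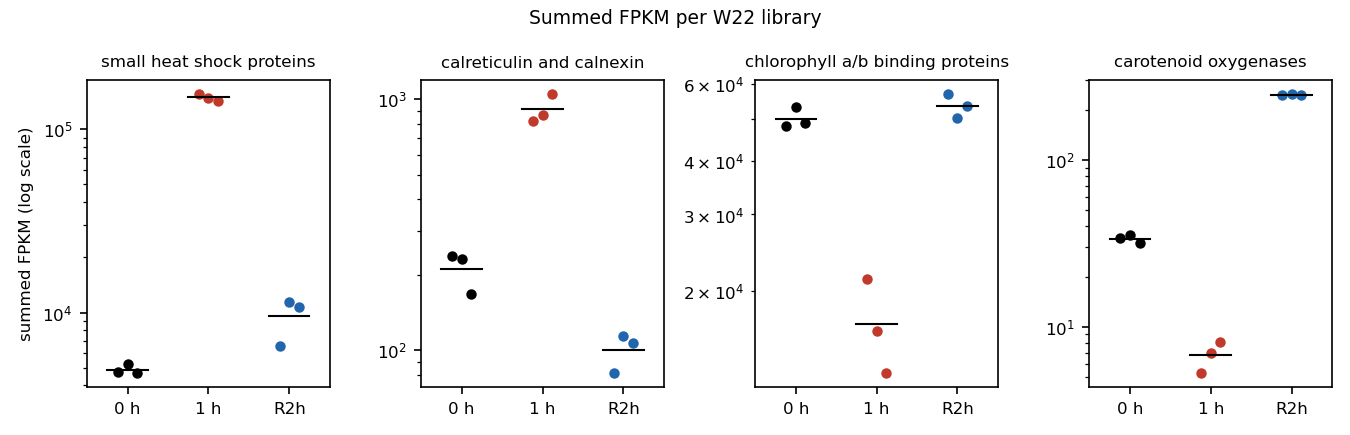
Summed FPKM of the members of 4 families in each of the 9 W22 libraries at 0 h, 1 h and R2h (log axis, points are libraries, lines are means). Small heat shock proteins and calreticulin and calnexin are high at 1 h, with the latter below 0 h at R2h, while chlorophyll a/b binding proteins and carotenoid oxygenases are low at 1 h.

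Other chaperone families were mixed. DnaJ proteins, the partners that deliver clients to Hsp70, had 6 lower and 2 higher of 10 tested members (median -2.38). Under both median-ratio scaling and quantile normalization 0 were higher, with 7 and 6 lower. The higher count was 1 when any of the 6 libraries but R2h replicate 2 was left out. Zm00001eb295770 went from 594, 488 and 489 FPKM to 18.3, 40.8 and 35.2 FPKM (log2 R2h/1h -4.08 ± 0.23 SE, limma adjusted p = 1.58e-09), below its 0 h values of 104, 111 and 101 FPKM. Zm00001eb345630 went from 140.4, 139.6 and 167 to 5.02, 6.74 and 6.07 FPKM (log2 R2h/1h -4.44 ± 0.16 SE, limma adjusted p = 2.1e-11), also below 0 h (15.4, 15.5 and 11.2 FPKM). All R2h libraries were thus under the unheated level for both genes. Zm00001eb103670 went from 315, 281 and 297 to 36.3, 41.4 and 42.4 FPKM (log2 R2h/1h -2.87 ± 0.50 SE, limma adjusted p = 0.000123). Zm00001eb218560 overlapped between the groups, at 75.3, 103 and 114 FPKM at 1 h and 76.9, 111 and 105 FPKM at R2h (limma adjusted p = 0.996). For R2h/0h, 4 DnaJ members were lower and 0 were higher (1.87% and 3.96% of all tested genes, 422 and 893).

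Of 4 tested members with Clp domains, ATPases that pull proteins out of aggregates or feed them to proteases, 1 fell (2 without 1 h replicate 1 or under either other scaling). This was Zm00001eb393250, at 1226, 1327 and 1320.3 FPKM at 1 h and 61.2, 64 and 64.1 FPKM at R2h (log2 R2h/1h -4.33 ± 0.26 SE, limma adjusted p = 3.19e-09). Its R2h level was above that at 0 h (30.1, 23.3 and 32.1 FPKM). The other named members, Zm00001eb084420 and Zm00001eb242420, had log2 fold changes of 0.65 and -0.94, under the threshold of 1.

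Chaperonins, the barrel-shaped folding machines of organelles and cytosol, had 8 higher, 8 lower and 11 not called of 27 (median -0.04). The share that was higher was near the 30.7% of all tested genes, while the share that was lower was above 5.73%. Under median-ratio scaling the split was 3 higher and 11 lower, and under quantile normalization 3 and 10. Zm00001eb065160 went from 1767, 1801 and 1706 to 316, 418 and 393 FPKM (log2 R2h/1h -2.23 ± 0.20 SE, limma adjusted p = 2.07e-07), where it remained above 0 h (85.4, 80.5 and 79.9 FPKM). Zm00001eb378930 went from 1309, 1322 and 1235 to 53.2, 76.5 and 66.5 FPKM (log2 R2h/1h -4.29 ± 0.15 SE, limma adjusted p = 1.69e-11), which was below 0 h (115, 110.2 and 121 FPKM). These abundant members therefore ended on opposite sides of the unheated level. Their R2h/0h differences were 2.17 (limma adjusted p = 3.68e-06) and -0.82 (limma adjusted p = 0.00101), the latter under the fold change threshold. Zm00001eb222300 went from 391.6, 500.4 and 451.6 to 16.8, 19.2 and 17 FPKM, a ratio of 25.3.

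Co-chaperones, which assist Hsp70 and Hsp90, included an abundant transcript that was not called. Zm00001eb237960, with a BAG domain, which in animals and plants releases nucleotide from Hsp70, was at 5582, 6419.6 and 7254 FPKM at 1 h and 5082, 5704 and 5236 FPKM at R2h. The libraries overlapped, and the log2 fold change of -0.26 did not pass (SE 0.26, limma adjusted p = 0.398). At 0 h it was at 506, 386 and 450.3 FPKM, so R2h/0h was 3.58 (limma adjusted p = 2.64e-07). In contrast, activators of the Hsp90 ATPase (Aha1 domain) fell below the unheated level. Zm00001eb037640 was at 476, 436 and 429 FPKM at 1 h, 6.97, 13.5 and 12.5 FPKM at R2h and 48.4, 45.3 and 45.9 FPKM at 0 h (log2 R2h/1h -5.27 ± 0.20 SE, limma adjusted p = 4.65e-11). Zm00001eb232010 was at 456, 354 and 382 FPKM at 1 h, 8.14, 10.8 and 10.9 FPKM at R2h and 52.2, 54.8 and 44.1 FPKM at 0 h (log2 R2h/1h -5.19 ± 0.18 SE, limma adjusted p = 2.1e-11). Of 11 tested co-chaperones 4 fell and 2 rose (median -0.82), with 1 higher when 1 h replicate 1 was left out. No member was higher under median-ratio scaling or quantile normalization, where 7 and 6 were lower.

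Calreticulin and calnexin, calcium-binding chaperones that fold glycoproteins in the endoplasmic reticulum, fell in 5 of 5 members under every scaling (median -3.61). Zm00001eb084590 was at 331, 348 and 439 FPKM at 1 h and 24.2, 33.9 and 31 FPKM at R2h (log2 R2h/1h -3.61 ± 0.16 SE, limma adjusted p = 1.57e-10), with 89, 92.1 and 65.8 FPKM at 0 h. Zm00001eb304290 was at 232, 251 and 286 FPKM at 1 h and 8.23, 11.6 and 11 FPKM at R2h (log2 R2h/1h -4.52 ± 0.16 SE, limma adjusted p = 2.1e-11), with 48.8, 48.8 and 32.8 FPKM at 0 h. Zm00001eb421600 was at 98.2, 111 and 133 FPKM at 1 h and 21.5, 32.5 and 28.3 FPKM at R2h (log2 R2h/1h -2.03 ± 0.16 SE, limma adjusted p = 6.32e-08). For each of these 3 genes all R2h libraries were below all 0 h libraries. For R2h/0h, 3 of the 5 members were lower and 0 were higher, against 1.87% and 3.96% of all tested genes.

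**Figure D3:**
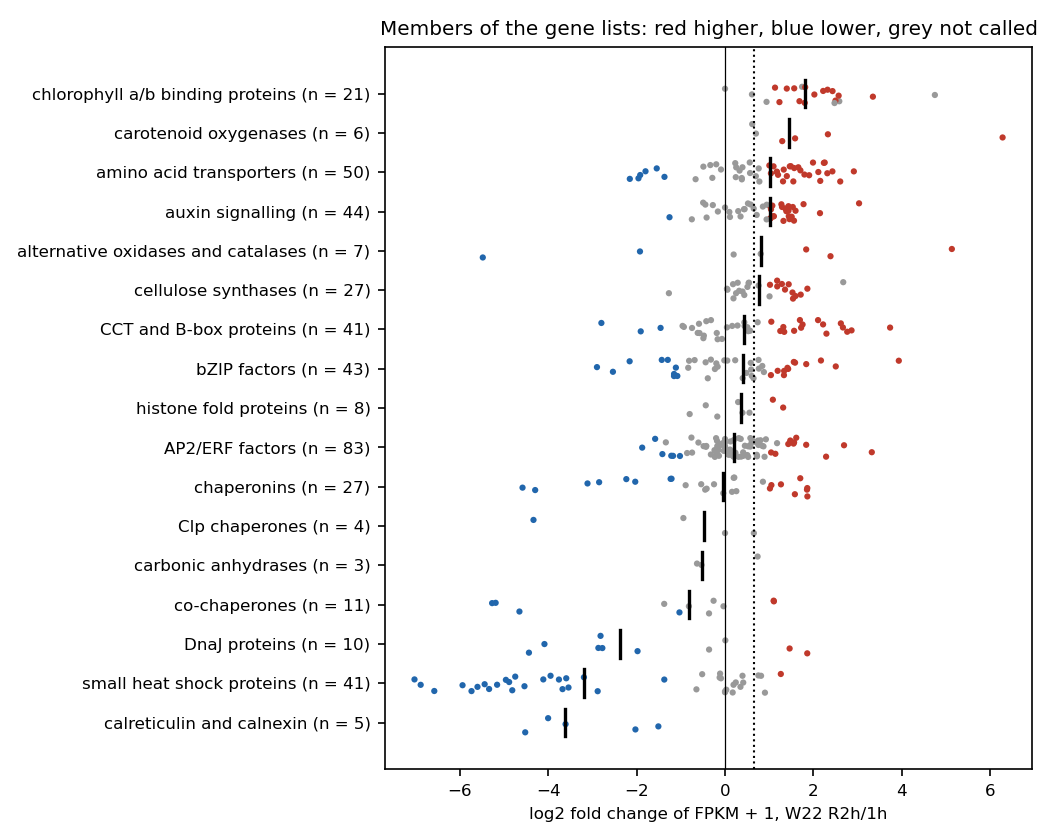
Log2 fold change of FPKM + 1 (W22 R2h/1h) for every tested member of 17 gene families, with the number of members beside each name. Red members were higher, blue were lower and grey were not called, thick lines are family medians, and the dotted line marks 0.66, the median over all genes tested. Calreticulin and calnexin (-3.61) and small heat shock proteins (-3.19) are lowest and chlorophyll a/b binding proteins (1.81) highest.

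Enzymes that limit reactive oxygen species moved in opposite directions. Alternative oxidase, a mitochondrial terminal oxidase that bypasses the proton-pumping complexes, fell in Zm00001eb071870, from 149.8, 117 and 121 FPKM to 1.91, 1.94 and 1.87 FPKM (log2 R2h/1h -5.48 ± 0.22 SE, limma adjusted p = 7.14e-11). Its R2h libraries lay within the range of the 0 h libraries (3.52, 2.92 and 1.42 FPKM). Catalase, which breaks down hydrogen peroxide, rose in Zm00001eb209570, from 2.38, 3.06 and 3.79 FPKM to 101, 177 and 155 FPKM (log2 R2h/1h 5.13 ± 0.49 SE, limma adjusted p = 3.26e-07). This was far above 0 h (9, 10.3 and 6.8 FPKM), with R2h/0h at 3.88 (limma adjusted p = 5.59e-05). The catalase Zm00001eb002510 rose from 65.3, 57.9 and 62.7 to 416, 275 and 307 FPKM (log2 R2h/1h 2.39 ± 0.26 SE, limma adjusted p = 1.39e-06), against 185, 193 and 216 FPKM at 0 h. Zm00001eb228570 was at 77.2, 89 and 98.3 FPKM at 1 h and 94.1, 104 and 104 FPKM at R2h, overlapping, and did not pass. Of the 7 tested oxidases and catalases, 3 rose and 2 fell in all 3 scalings.

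Chlorophyll a/b binding proteins, which form the light-harvesting antenna of the photosystems, were higher at R2h than at 1 h. Of 21 tested members 14 rose and 0 fell (median 1.81, against 30.7% of all tested genes that rose). Median-ratio scaling called 7 of them higher and quantile normalization 15, with 0 lower in both. Their summed FPKM was 12859 to 21261 at 1 h, 50165 to 57028 at R2h and 48009 to 53281 at 0 h. For R2h/0h 0 members were called in either direction, against 3.96% higher and 1.87% lower among all tested genes.

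The most abundant, Zm00001eb049640, was at 3336, 2780.5 and 2061 FPKM at 1 h and 13457, 11509.7 and 12485 FPKM at R2h (log2 R2h/1h 2.22 ± 0.28 SE, limma adjusted p = 5.95e-06), with 12824, 14627 and 14114 FPKM at 0 h. Zm00001eb343900 went from 3542, 2551 and 2213 to 9896, 9117 and 9426 FPKM (log2 R2h/1h 1.80 ± 0.30 SE, limma adjusted p = 7.56e-05). Zm00001eb324240 went from 1941, 1506 and 1090.1 to 4966, 4517 and 4722 FPKM (log2 R2h/1h 1.68 ± 0.27 SE, limma adjusted p = 6.17e-05). The last 2 genes were not called under median-ratio scaling, at 0.85 and 0.73. The called member with the largest rise, Zm00001eb116960, was at 2.03, 3.85 and 2.55 FPKM at 1 h and varied at R2h, at 101, 14.2 and 34.5 FPKM (log2 R2h/1h 3.35 ± 0.68 SE, limma adjusted p = 0.000432). Carbonic anhydrases, which supply bicarbonate to carbon fixation, had 0 of 3 members called. Zm00001eb101050 and Zm00001eb315340 had log2 fold changes of -0.53 and -0.63 and Zm00001eb158800 of 0.74, all under the threshold. Median-ratio scaling called 2 members lower and quantile normalization 1 higher and 1 lower.

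Carotenoid oxygenases, which cut carotenoids into precursors of abscisic acid, strigolactones and volatile compounds, held the largest annotated rise. Zm00001eb188280 was at 1.43, 1.67 and 2.66 FPKM at 1 h and 231, 218 and 219 FPKM at R2h, a ratio of means of 116 (log2 R2h/1h 6.28 ± 0.40 SE, limma adjusted p = 5.84e-09). At 0 h it had been at 17.9, 17.7 and 16.4 FPKM, so all R2h libraries were above both earlier groups, and R2h/0h was 3.61 (limma adjusted p = 1.77e-05). Of 6 tested members 4 rose and 0 fell (median 1.44). Median-ratio scaling called 2 of them higher and quantile normalization 1, with 0 lower in both. Zm00001eb074640 went from 1.91, 3.61 and 2.15 to 7.77, 10.9 and 9.97 FPKM, and Zm00001eb300240 from 0.29, 0.32 and 1.11 to 2.4, 12.2 and 9.11 FPKM. The former was called (log2 R2h/1h 1.58 ± 0.33 SE, limma adjusted p = 0.000579). The latter was called as well (log2 R2h/1h 2.33 ± 0.52 SE, limma adjusted p = 0.000999), but neither was called under median-ratio scaling or quantile normalization, nor Zm00001eb300240 in a fit of only the compared groups (limma adjusted p = 0.0107).

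The other large annotated rises had diverse roles. Zm00001eb373490, an atypical phosphatase of the Siw14 type, went from 2.59, 1.95 and 1.76 to 155, 92.9 and 112 FPKM (log2 R2h/1h 5.26 ± 0.36 SE, limma adjusted p = 1e-08). Zm00001eb257660, a clustered mitochondria protein, a family that sets the distribution of mitochondria in the cell, went from 4.16, 4.23 and 4.29 to 149, 146 and 143 FPKM (log2 R2h/1h 4.81 ± 0.23 SE, limma adjusted p = 2.63e-10). At 0 h they were at 73.1, 73.7 and 68.6 and 103, 87.8 and 118 FPKM, and their R2h/0h differences did not pass (limma adjusted p = 0.177 and 0.123). Zm00001eb297390, with a Band 7 domain found in stomatin-like membrane proteins, went from 11.1, 10.6 and 9.58 to 237, 201 and 206 FPKM (log2 R2h/1h 4.24 ± 0.18 SE, limma adjusted p = 1.35e-10), which was above 0 h (31.7, 32 and 29.1 FPKM). Among all genes, annotated or not, and named after their values were seen, Zm00001eb356910 rose most, from 0.54, 0.59 and 0.32 to 249, 104 and 141 FPKM, a ratio of 341. On the log2(FPKM + 1) scale Zm00001eb087350 fell most, from 969.6, 1212 and 971 to 2.66, 6.32 and 5.41 FPKM, a ratio of 219. By the ratio of means Zm00001eb004300 fell more, from 383, 239 and 247 to 0.29, 0.51 and 1.71 FPKM, a ratio of 346.

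Of 43 tested bZIP factors, which include regulators of abscisic acid and light responses, 12 rose and 9 fell (median 0.40). The share that rose was near the 30.7% of all tested genes, and 5.73% of all tested genes fell. Median-ratio scaling gave 4 higher and 14 lower, and quantile normalization 6 and 13. Zm00001eb031210 was close to absent at 1 h, at 0.13, 0.06 and 0.15 FPKM, and at 16.8, 16.3 and 14.9 FPKM at R2h (log2 R2h/1h 3.93 ± 0.17 SE, limma adjusted p = 9.9e-11). It was also low at 0 h (0.41, 0.48 and 0.25 FPKM), so it was high in the R2h libraries alone among the W22 groups. Zm00001eb389660 went from 85.2, 129 and 142 to 311, 322 and 300.5 FPKM (log2 R2h/1h 1.41 ± 0.20 SE, limma adjusted p = 1.62e-05), a call lost under median-ratio scaling at 0.47. Zm00001eb264930 was at 162, 161 and 177 FPKM at 1 h and 307, 279 and 267 FPKM at R2h without reaching the threshold (0.77), and Zm00001eb028430 overlapped between the groups. *bZIP100* (Zm00001eb373300) fell from 32, 34.9 and 34.5 to 5.04, 8.26 and 7.47 FPKM (log2 R2h/1h -2.16 ± 0.23 SE, limma adjusted p = 8.86e-07).

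AP2/ERF factors, which include dehydration and ethylene response regulators, had 12 higher and 6 lower of 83 (median 0.20), a smaller share higher than the 30.7% of all tested genes and a share lower near their 5.73%. These counts turned to 6 and 13 under median-ratio scaling and to 5 and 10 under quantile normalization. Zm00001eb313850 rose from 6.78, 6.8 and 4.82 to 58.1, 80.3 and 72.2 FPKM (log2 R2h/1h 3.32 ± 0.43 SE, limma adjusted p = 7.43e-06), above 0 h (9.75, 8.59 and 9.45 FPKM). Zm00001eb042240 rose from 40.4, 47.4 and 55.3 to 64.1, 227 and 189.8 FPKM, with replicate 1 far below the other R2h libraries (log2 R2h/1h 1.55 ± 0.34 SE, limma adjusted p = 0.00081), a call lost under median-ratio scaling at 0.61 and in fits of only the compared groups (limma adjusted p = 0.0321) or of the W22 groups (0.0123). Zm00001eb099980 narrowly missed the threshold on p, with 198, 165 and 166 FPKM at 1 h and 58.2, 78.5 and 71.2 FPKM at R2h (log2 R2h/1h -1.34 ± 0.42 SE, limma adjusted p = 0.0108). Its SE is pooled over all 18 libraries, and those labelled *nf-ya1* at 0 h were at 51, 10.6 and 43.2 FPKM. Zm00001eb194220 had a log2 fold change of 0.52.

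CCT and B-box proteins, which take part in light signalling, flowering and the circadian clock, had 16 higher and 3 lower of 41 (median 0.44), against 8 and 12 under median-ratio scaling and 8 and 6 after quantile normalization. Zm00001eb078770 rose from 27.9, 35.5 and 47.9 to 464, 512 and 508 FPKM (log2 R2h/1h 3.73 ± 0.24 SE, limma adjusted p = 5.34e-09), which exceeded 0 h (223, 239 and 182 FPKM). The abundant Zm00001eb389540, Zm00001eb246600 and Zm00001eb078490 had log2 fold changes of -0.19, -0.48 and -0.07, none of them called.

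Growth-related families had more higher than lower members in FPKM, as did all tested genes (30.7% higher and 5.73% lower), and this depended on the scaling. Auxin signalling genes (AUX/IAA repressors and auxin response factors) had 23 higher and 1 lower of 44 (median 1.01), but 4 and 5 under median-ratio scaling and 3 and 3 after quantile normalization. The AUX/IAA gene Zm00001eb031190 rose from 0.57, 0.34 and 0.2 to 9.68, 10.4 and 10.4 FPKM (log2 R2h/1h 3.03 ± 0.27 SE, limma adjusted p = 1.79e-07) against 7.38, 8.33 and 10.1 FPKM at 0 h. The 3 most abundant, Zm00001eb122410, Zm00001eb142540 and Zm00001eb153660, were not called (-0.42, 0.35 and -0.45). Cellulose synthases, which build the cell wall, had 11 higher and 0 lower of 27 (median 0.76, with 7 higher without 1 h replicate 1 and 6 without 1 h replicate 3), but 0 and 1 under median-ratio scaling and 1 and 0 after quantile normalization.

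The cellulose synthase Zm00001eb316070 went from 67.8, 65.9 and 70.3 to 224, 261 and 266 FPKM (log2 R2h/1h 1.86 ± 0.41 SE, limma adjusted p = 0.000943), a call lost under median-ratio scaling at 0.92. Zm00001eb306030 went from 7.2, 16.1 and 9.34 to 21.8, 29.9 and 23.1 FPKM (log2 R2h/1h 1.18 ± 0.30 SE, limma adjusted p = 0.00259), and leaving out 1 h replicate 1, 1 h replicate 3 or R2h replicate 2 ended its call, at adjusted p of 0.0185, 0.0113 and 0.0146. It was also not called under median-ratio scaling (0.29), after quantile normalization (0.53) or in a fit of only the compared groups (limma adjusted p = 0.0132). Zm00001eb082890 was higher at 1 h, at 37, 27 and 24.4 FPKM against 13.9, 10.2 and 10.5 FPKM, and did not pass (limma adjusted p = 0.0307). The spread in that test is pooled over all 18 libraries, and those labelled *nf-ya1* at 1 h were at 43, 123 and 166 FPKM. Amino acid transporters had 26 higher and 6 lower of 50 (median 1.02), and 12 and 10 under median-ratio scaling or 11 and 7 after quantile normalization. Their most abundant members moved the other way. Zm00001eb250210 fell from 353, 323 and 349 to 69.2, 106 and 97.8 FPKM (log2 R2h/1h -1.92 ± 0.25 SE, limma adjusted p = 7e-06). Zm00001eb257440 fell from 112, 147 and 152 to 23.9, 34.3 and 32.2 FPKM (log2 R2h/1h -2.15 ± 0.25 SE, limma adjusted p = 2.46e-06), while Zm00001eb424670 was not called. Zm00001eb147400 rose from 0.92, 1.77 and 1.21 to 15.8, 15.9 and 16.7 FPKM (log2 R2h/1h 2.91 ± 0.20 SE, limma adjusted p = 1.07e-08).

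Histone fold proteins, which package DNA, had 2 higher and 0 lower of 8 (median 0.35), and 0 and 2 with median-ratio scaling. The higher count was 1 without 1 h replicate 1 and 0 without 1 h replicate 3 or R2h replicate 1. Zm00001eb313730 went from 9.01, 15.7 and 9.91 to 32.1, 26.8 and 29.6 FPKM (log2 R2h/1h 1.31 ± 0.34 SE, limma adjusted p = 0.003), and its call ended without 1 h replicate 1, 1 h replicate 3 or R2h replicate 1, at adjusted p of 0.0167, 0.0131 and 0.0121. It was also not called under median-ratio scaling (0.42) or after quantile normalization (0.70). The abundant Zm00001eb099930, Zm00001eb148730 and Zm00001eb313720 were not called, at 0.40, -0.80 and -0.44.

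Genes that the study had singled out for promoter assays differed in their change, and *GRF1* and *JIH5* were not called. *HUP26* (Zm00001eb406490), a hypoxia response gene, fell from 3754, 3267 and 3603 FPKM to 124, 387 and 359 FPKM (log2 R2h/1h -3.77 ± 0.39 SE, limma adjusted p = 7.7e-07), against 142, 146 and 102 FPKM at 0 h. *NIP2c* (Zm00001eb372380), a membrane channel of the aquaporin family, rose from 0.63, 0.24 and 0.46 FPKM to 18.2, 28.3 and 26.3 FPKM (log2 R2h/1h 4.12 ± 0.26 SE, limma adjusted p = 5.43e-09), which overlapped with 0 h (25, 26.6 and 19.4 FPKM). *ASN3* (Zm00001eb013430), an asparagine synthetase that stores nitrogen in asparagine, fell from 426, 564 and 1288 FPKM to 86.6, 276 and 224 FPKM (log2 R2h/1h -1.95 ± 0.52 SE, limma adjusted p = 0.00377). All its R2h libraries remained above 0 h (17.8, 20.2 and 6.8 FPKM). Its call ended without 1 h replicate 3 (limma adjusted p = 0.0256) or R2h replicate 1 (0.0258), and also after quantile normalization (0.0119), with a pseudocount of 0.01 (0.0132), in the treat test (0.211), and in fits of only the compared groups (0.0282) or of the W22 groups (0.0193). *GRF1* (Zm00001eb080570) was at 101, 92.8 and 75.4 FPKM at 1 h and 178, 179 and 173 FPKM at R2h, against 246, 262 and 253 FPKM at 0 h. Its log2 R2h/1h of 0.98 was just under the threshold of 1. *JIH5* (Zm00001eb211100), which hydrolyses a jasmonate conjugate, was near the lower end of the scale, at 0.07, 0.05 and 0 FPKM at 1 h and 0.7, 0.68 and 0.56 FPKM at R2h, and did not pass.

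**Figure D4:**
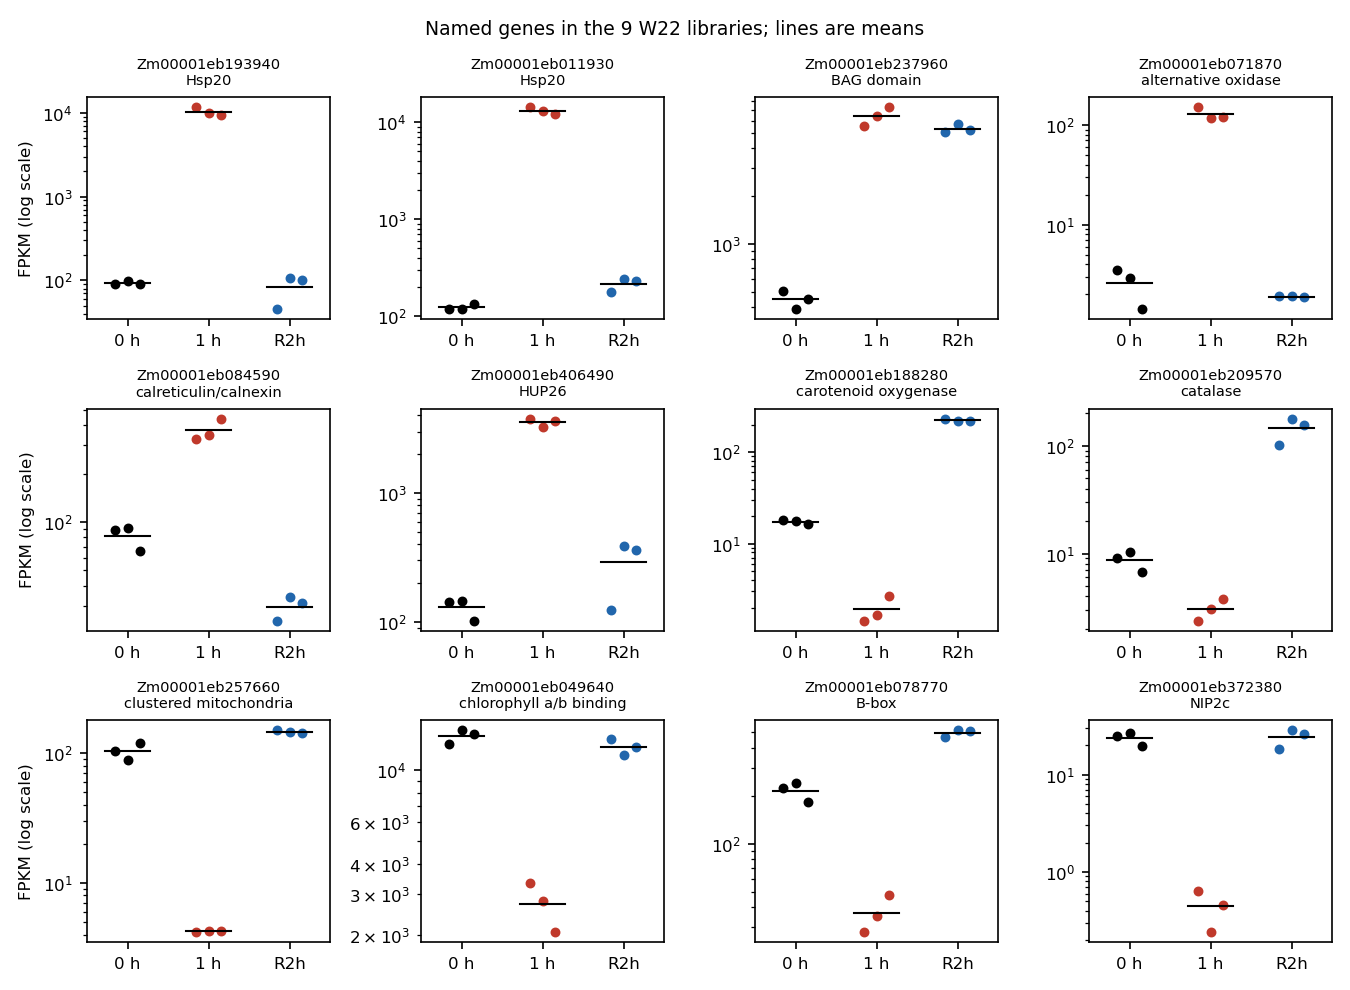
FPKM of 12 named genes in the 9 W22 libraries at 0 h, 1 h and R2h (log axes, points are libraries, lines are means). At R2h Zm00001eb193940 spans its 0 h level, while Zm00001eb011930 lies above its own and Zm00001eb084590 below. The BAG gene Zm00001eb237960 stays near its 1 h level, and Zm00001eb188280 rises above 0 h.

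Whether the recovery change differed with the genotype was tested as the difference of the R2h/1h changes (*nf-ya1* minus W22). In the libraries labelled *nf-ya1*, 8272 genes rose and 1852 fell between 1 h and R2h (36.6% and 8.2%). These libraries are not shared with W22. Of the genes higher in W22, 4947 were higher in *nf-ya1* too, which is 71.5% of the W22 list and 59.8% of the *nf-ya1* list, and 20 were lower. Of the genes lower in W22, 967 were lower in *nf-ya1* (74.8% and 52.2%) and 10 were higher. Across the 22572 genes, which are not independent replicates and share a fit and a composition of each library, the changes correlated at 0.75 (Pearson) and 0.68 (Spearman). The change was higher in *nf-ya1* for 917 genes and lower for 879 (4.06% and 3.89% of the tested genes). Median-ratio scaling changed these counts to 866 and 1341, so the share higher moved from 51.1% to 39.2%. Quantile normalization changed them to 830 and 955.

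**Figure D5:**
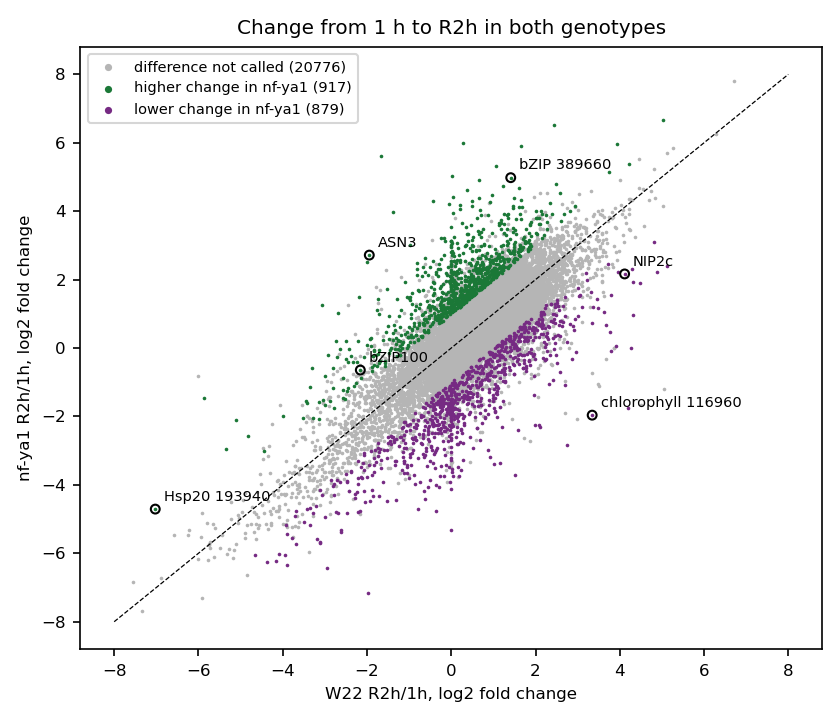
Log2 fold change from 1 h to R2h in W22 (horizontal) and in the libraries labelled *nf-ya1* (vertical) for 22572 genes. Green genes had a higher change in *nf-ya1* (917), purple genes a lower change (879), the dashed line marks equal change, and 6 named genes are circled.

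*ASN3* was lower at R2h than at 1 h in W22 and higher in *nf-ya1*. There it was at 13.5, 17.1 and 19.4 FPKM at 1 h and 190.3, 65.6 and 119 FPKM at R2h, and the difference of the changes was 4.66 (SE 0.73, limma adjusted p = 0.000534). The genotypes stood far apart at 1 h and overlapped at R2h. *bZIP100* changed less in *nf-ya1*, from 9.07, 13.7 and 18.8 to 7.59, 8.72 and 8.18 FPKM (difference 1.51, limma adjusted p = 0.00397). *NIP2c* rose less, from 4.3, 3.02 and 1.69 to 14.3, 18.7 and 16.2 FPKM (difference -1.95, limma adjusted p = 0.00192).

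Among small heat shock proteins 5 of 41 had a higher change in *nf-ya1* and 0 a lower one, against 4.06% and 3.89% of all tested genes. Zm00001eb193940 had similar 1 h levels in *nf-ya1*, at 11913, 11097 and 10942 FPKM, and 458, 414 and 425 FPKM at R2h. All 3 of those R2h libraries were above the W22 R2h libraries, and the difference of the changes was 2.32 (limma adjusted p = 0.0005). The bZIP gene Zm00001eb389660 was at 16.2, 12.1 and 13.8 FPKM at 1 h and 517, 389.9 and 518 FPKM at R2h in *nf-ya1* (difference 3.57, limma adjusted p = 2.03e-06). CCT and B-box proteins had 9 members with a higher change and 0 with a lower one, and AP2/ERF factors 4 and 11, of 41 and 83 tested members. The families hold only genes that the study had called in these samples. Their counts beside the shares of all tested genes are therefore a description and not independent evidence of a genotype difference.

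The largest annotated differences were in genes with wide spread. The BAG gene Zm00001eb364900 was at 1.35, 2.37 and 2.02 FPKM at 1 h and 0.17, 0 and 0.17 FPKM at R2h in W22, and at 0.81, 1.17 and 1.76 FPKM at 1 h and 4.4, 107 and 71 FPKM at R2h in *nf-ya1* (difference 5.35, limma adjusted p = 0.00188). Zm00001eb116960 was at 93.8, 267 and 428 FPKM at 1 h and 109.8, 26.2 and 60.1 FPKM at R2h in *nf-ya1* (difference -5.31, limma adjusted p = 0.00135). The aconitase-type gene Zm00001eb208760 was at 0.87, 1.57 and 1.41 FPKM at 1 h and 3.65, 4.16 and 4.39 FPKM at R2h in W22 and at 4.12, 45.2 and 70.4 FPKM at 1 h and 1.23, 1.64 and 1.59 FPKM at R2h in *nf-ya1* (difference -4.53, limma adjusted p = 0.00288). In each of these genes the *nf-ya1* libraries of at least 1 group differed several fold among themselves.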

How the data were processed

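RNA-seq was performed on leaves of W22 and *nf-ya1* at 0 h, 1 h and R2h, with 3 biological replicates each. The authors filtered BGISEQ-500 reads, aligned them to maize B73 V5 and deposited 1 table of FPKM values, rounded to 2 decimals, for the 18 libraries. The aligner, the counter and use of strand are not given in the sources used here. FPKM hold no read counts, so the depth of a gene is unknown and precision comes from the spread between replicates. The number of columns not used was 0.

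Groups followed the sample titles. The scale was log2(FPKM + 1), on which changes of low genes are understated. Genes reaching an FPKM of 1 in 3 or more libraries were fitted with 1 mean per group over all 18 libraries in limma 3.58.1 (R 4.3.3), with an intensity trend. Adjustment over all tested genes followed Benjamini and Hochberg, and a call required an adjusted p of at most 0.01 with a log2 fold change of at least 1 in either direction. R2h/0h uses the same R2h libraries and is given only as values beside R2h/1h. An exact permutation of 3 libraries against 3 cannot give a p below 0.1, so the p-values are those of the model. No set test was run.

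The families and the comparison were chosen with earlier results of these data known. Gene names come from the study and its domain annotation, of which 1996 genes were used. Named genes are the 7 the study names with an ID, and the 5 largest rises and 5 largest falls (annotated, called, no overlap, at least 10 FPKM in the higher group). The 3 most abundant members and the called member with the largest change of each family were added. The 2 largest genotype differences each way were named among annotated genes called for that difference. These had no overlap between 1 h and R2h in either genotype or both, and a mean of at least 10 FPKM in any group compared. Alternatives were quantile normalization, median-ratio scaling, pseudocounts of 0.1 and 0.01, no filter or a filter on a mean FPKM of 5, fits of fewer groups, a block for the replicate number, robust moderation, no trend, a looser adjusted p (0.05), calls with no minimum fold change, the treat test and each library left out in turn. Plots were made in Python 3.11.15 with Matplotlib 3.10.9.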

Additional observations from a re-analysis of the deposited data

Results flagged for a closer look

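The change from 1 h to R2h differed between the genotypes (limma, difference of the changes, *nf-ya1* minus W22) in 917 genes with a higher and 879 with a lower change in *nf-ya1* (4.06% and 3.89% of all tested genes), and in 17 of the 85 named genes. The count of 17 is a description only, since *ASN3*, Zm00001eb364900, Zm00001eb116960 and Zm00001eb208760 were named for the size of this difference (*ASN3* also as a gene the study names). Among these 17, the difference on the log2 scale was 4.66 for *ASN3* (Zm00001eb013430), 1.51 for *bZIP100* (Zm00001eb373300) and -1.95 for *NIP2c* (Zm00001eb372380). For bZIP genes it was 3.57 in Zm00001eb389660, 2.03 in Zm00001eb031210 and 1.70 in Zm00001eb264930. For chaperones it was 2.32 in the small heat shock protein Zm00001eb193940, -1.94 in the DnaJ gene Zm00001eb295770 and 5.35 in the BAG gene Zm00001eb364900. It was 1.54 in the catalase Zm00001eb002510, -3.37 in the carotenoid oxygenase Zm00001eb300240 and -5.31 in the chlorophyll a/b binding gene Zm00001eb116960. The CCT gene Zm00001eb389540 and the B-box gene Zm00001eb078770 had 1.79 and 1.40, and the AUX/IAA gene Zm00001eb122410 had 1.44. Zm00001eb257660 (clustered mitochondria protein) had -1.71 and Zm00001eb208760 (aconitase type) had -4.53. No explanation for these differences was tested.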

How the results depend on the processing

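For R2h/1h in W22, median-ratio scaling gave 1794 higher and 2813 lower genes, quantile normalization 2063 and 2268, and testing for a log2 change above 1 (treat) gave 1828 and 643. Without a fold change threshold 11147 genes were higher. Pseudocounts of 0.1 and 0.01 gave 8932 and 8946 higher genes. For R2h/0h the count of higher genes was 575 with a mean FPKM of at least 5, 486 with median-ratio scaling, 537 with quantile normalization, 2154 without a fold change threshold and 92 by the treat test, and the count of lower genes was 744 and 38 in the last 2 settings. For the genotype difference, the treat test gave 41 higher and 78 lower, and no fold change threshold gave 1437 higher. The lower count was 1341 with median-ratio scaling, 548 with a mean FPKM of at least 5 and 1396 at an adjusted p of 0.05. Left-out libraries gave 633 to 1064 higher and 633 to 1096 lower.

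The replicate number as a block gave 6888 higher and 1294 lower genes for R2h/1h. The samples share only a number: same-numbered deviations of 1 h and R2h correlated at 0.20, -0.02 and 0.05. Leaving out each library in turn gave 6196 to 7048 higher and 1211 to 1307 lower genes for R2h/1h. Depth per gene is not known from FPKM, so the error of low genes cannot be set against counting error.

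Named genes turned direction in 15 of 1698 recomputed values, all of them genes that were not called in FPKM. With median-ratio scaling the log2 fold change was -0.26 for Zm00001eb084420, -0.54 for Zm00001eb099930, -0.58 for Zm00001eb142540, -0.21 for Zm00001eb158800, -0.42 for Zm00001eb194220, -0.94 for Zm00001eb218560, -0.75 for Zm00001eb228570 and -0.18 for Zm00001eb264930. With quantile normalization it was 0.07 for Zm00001eb078490, -0.02 for Zm00001eb142540, -0.16 for Zm00001eb218560 and 0.08 for Zm00001eb389540. Leaving out single libraries moved Zm00001eb218560 to between -0.17 and 0.17, with -0.09 and -0.05 among them. The treat test ended the R2h/1h calls of *ZmNF-YA1*, *ASN3*, Zm00001eb042240, Zm00001eb074640, Zm00001eb116960, Zm00001eb247630 and Zm00001eb250210. It also ended those of Zm00001eb300240, Zm00001eb306030, Zm00001eb313730, Zm00001eb316070, Zm00001eb324240, Zm00001eb343900 and Zm00001eb389660.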

Other observations

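Further families, chosen after their values were seen and therefore given with no test, are given for the change between 1 h and R2h in W22, where 30.7% of all tested genes were higher and 5.73% lower. Bax inhibitor 1 proteins, which protect against cell death at the endoplasmic reticulum, had 3 lower and 0 higher of 6 tested members (median log2 fold change -2.32). The most abundant, Zm00001eb230820, was at 2364, 2100.3 and 2501 FPKM at 1 h and at 50.04, 121 and 106 FPKM at R2h, against 104, 112 and 97.6 FPKM at 0 h. Of 13 genes for 14-3-3 proteins, which bind phosphorylated partners, 10 were higher and 3 lower, but 4 and 3 under both median-ratio scaling and quantile normalization. Zm00001eb179490 went from 37.9, 43.4 and 39.5 FPKM to 282, 272 and 273 FPKM. Aminotransferases of class V had 3 higher and 0 lower of 4, and Zm00001eb034260 went from 52.1, 51.2 and 61.7 FPKM to 873, 748 and 783 FPKM, with 623, 657 and 739 FPKM at 0 h. Aromatic amino acid lyases, the entry to phenylpropanoid synthesis, had 5 higher and 0 lower of 8 for R2h/1h (1 higher under both median-ratio scaling and quantile normalization). For R2h/0h they had 7 lower and 0 higher, against 1.87% lower and 3.96% higher among all tested genes. Zm00001eb247630 was at 22.9, 31.1 and 29.6 FPKM at 1 h, 53.1, 74.2 and 67.5 FPKM at R2h and 149, 155 and 97.0 FPKM at 0 h, and its R2h/1h call was lost under median-ratio scaling at 0.26 and quantile normalization at 0.75. Acyl-ACP thioesterases, which release fatty acids from the plastid synthesis machinery, had 3 lower and 1 higher of 5 (0 higher without 1 h replicate 1 or R2h replicate 3, or under either other scaling), and Zm00001eb270390 went from 56.2, 56.9 and 44.7 FPKM to 12.3, 10.9 and 11.0 FPKM.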
